A study of Mus musculus with 4 samples.

Results

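The forkhead box genes were followed through the open chromatin of mouse facial ectoderm and through its response to the loss of the AP-2 transcription factors TFAP2A and TFAP2B. A gene was taken as a member when it was protein-coding, lay on 1 of the 19 autosomes and had a symbol made of Fox, a letter from a to s and a number. This gave 41 of the 20698 protein-coding genes on these chromosomes. A further 3 forkhead genes on the X chromosome were left out by the rule. The peaks described are those whose centre lay within 100 kb of the start site of the gene's principal transcript on the GRCm38 build (mm10). They numbered 464 of the 63926 ATAC-seq peaks that control ectoderm had on these chromosomes. Among the 3010 regions that lost accessibility without AP-2, 9 met the same limit.

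Forkhead proteins are transcription factors that bind DNA through a winged-helix domain, and some of them, the FOXA proteins above all, can bind their sites in compacted chromatin. Several members mark the ectoderm of the head. The Foxi genes act early in the ectoderm from which placodes, ear and skin appendages form, Foxe1 acts in the thyroid and palate, Foxe3 in the lens, and Foxn1 in thymic epithelium and hair. Others, such as the Foxo, Foxk and Foxp genes, are used in many cell types. AP-2 proteins bind a GC-rich palindrome and are required in the ectoderm for the face to form.

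ATAC-seq reads out accessible DNA through the insertions of a transposase. Facial ectoderm was freed from mesenchyme at embryonic day 11.5 and 50000 cells were used for each of 4 libraries. The 2 control libraries came from littermates with the genotype Tfap2a flox/+; Tfap2b flox/+ that did not carry Crect. The 2 EDKO libraries came from Crect; Tfap2a flox/flox; Tfap2b flox/flox embryos, in which Cre, driven in early ectoderm by an intronic enhancer of Tfap2a, deletes both genes. All 4 libraries therefore carried floxed alleles, and only EDKO embryos carried Cre. The authors' peak caller, Genrich, combined the libraries of each call. According to the methods, a control peak was called on both control libraries against a background from the genome, and an AP-2-dependent region on these control libraries with the EDKO libraries as the background. The control list itself carries a name that numbers its replicates unlike the labels, so which control libraries it holds rests on the methods. Neither list holds a value for a single library or a read count, so depth is unknown, no difference could be tested against the spread between libraries, and the Wilson intervals given here (95%) cover counting error only and treat peaks as independent. Beside a count of 0 the limit given is instead the share that 3 counts would make. A lower signal in EDKO ectoderm can come from less open chromatin in each cell or from fewer cells of a type, and these cannot be told apart.

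Of 12 surface ectoderm markers, such as Epcam and Trp63, 12 had a control peak at the start site, with a median summit −log10 p of 10.8. So did 8 of 8 markers of mesenchyme and neural crest (median 5.20) and 6 of 6 neural markers (median 5.47), but only 2 of 8 of endothelium and blood. A peak at the start site was thus not specific to genes of the surface ectoderm, and expression was not analysed here.

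Regions at forkhead genes that lost accessibility in EDKO ectoderm lay at 7 of the 41 genes. Foxi2 had 3, and Foxc1, Foxb1, Foxl2, Foxn2, Foxp2 and Foxi1 had 1 each. Their sequences, except that of the weakest, at Foxi1, are shown because they are the stretches of forkhead loci that lost signal in EDKO ectoderm. The 5 regions that had a forkhead gene as the nearest start site come first and the 3 regions at Foxi2 follow. Each run is the plus strand of the GRCm38 reference, read 5′ to 3′, up to 300 bases around the summit. Distances are from the gene's start site, negative when upstream. Capitals mark matches on either strand to the AP-2 string GCCNNNGGC or to a second AP-2 consensus, which allows G or C at both ends and asks for C or T at the fourth base and A or G at the sixth.
Foxc1 +57 kb, chr13:31863525-31863824: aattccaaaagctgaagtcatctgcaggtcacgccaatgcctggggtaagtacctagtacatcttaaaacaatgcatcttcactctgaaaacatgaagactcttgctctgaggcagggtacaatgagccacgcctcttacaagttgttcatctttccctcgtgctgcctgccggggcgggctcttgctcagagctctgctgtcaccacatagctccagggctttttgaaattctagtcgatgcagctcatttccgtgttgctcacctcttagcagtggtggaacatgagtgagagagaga
Foxb1 −55.7 kb, chr9:69816635-69816934: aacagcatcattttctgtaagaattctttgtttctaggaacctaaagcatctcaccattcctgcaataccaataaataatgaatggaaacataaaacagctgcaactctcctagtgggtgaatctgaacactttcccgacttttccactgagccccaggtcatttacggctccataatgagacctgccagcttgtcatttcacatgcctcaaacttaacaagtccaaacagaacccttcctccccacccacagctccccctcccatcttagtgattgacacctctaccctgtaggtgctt
Foxl2 −10.3 kb, chr9:98944750-98945049: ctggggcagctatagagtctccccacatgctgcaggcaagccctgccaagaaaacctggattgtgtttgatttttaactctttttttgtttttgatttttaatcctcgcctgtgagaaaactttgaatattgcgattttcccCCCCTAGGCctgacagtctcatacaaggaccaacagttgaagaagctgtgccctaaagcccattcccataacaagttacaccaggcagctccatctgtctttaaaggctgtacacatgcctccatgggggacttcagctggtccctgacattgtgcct
Foxn2 −43.1 kb, chr17:88397542-88397763: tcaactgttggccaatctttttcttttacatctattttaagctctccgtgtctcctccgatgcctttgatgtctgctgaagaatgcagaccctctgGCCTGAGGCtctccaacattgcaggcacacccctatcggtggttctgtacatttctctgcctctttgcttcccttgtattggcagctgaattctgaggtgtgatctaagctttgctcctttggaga
Foxp2 +78.3 kb, chr6:14979493-14979734: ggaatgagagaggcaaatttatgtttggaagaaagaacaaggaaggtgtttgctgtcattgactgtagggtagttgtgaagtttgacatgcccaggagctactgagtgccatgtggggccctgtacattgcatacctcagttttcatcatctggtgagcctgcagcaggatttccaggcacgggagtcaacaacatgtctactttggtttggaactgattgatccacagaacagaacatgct
Foxi2 −75.4 kb, chr7:135334718-135335017: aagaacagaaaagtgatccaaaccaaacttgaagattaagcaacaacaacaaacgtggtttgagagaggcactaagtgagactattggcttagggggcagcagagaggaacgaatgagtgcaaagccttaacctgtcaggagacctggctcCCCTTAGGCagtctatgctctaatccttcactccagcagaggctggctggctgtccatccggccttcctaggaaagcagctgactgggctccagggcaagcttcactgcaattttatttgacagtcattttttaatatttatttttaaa
Foxi2 +67.2 kb, chr7:135477399-135477698: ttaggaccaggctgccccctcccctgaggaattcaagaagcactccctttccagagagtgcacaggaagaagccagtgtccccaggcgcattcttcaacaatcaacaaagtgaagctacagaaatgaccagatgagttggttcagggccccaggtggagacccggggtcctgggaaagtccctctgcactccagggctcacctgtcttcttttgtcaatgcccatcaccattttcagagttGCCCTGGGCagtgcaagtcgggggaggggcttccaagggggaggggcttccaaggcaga
Foxi2 +75.5 kb, chr7:135485724-135485985: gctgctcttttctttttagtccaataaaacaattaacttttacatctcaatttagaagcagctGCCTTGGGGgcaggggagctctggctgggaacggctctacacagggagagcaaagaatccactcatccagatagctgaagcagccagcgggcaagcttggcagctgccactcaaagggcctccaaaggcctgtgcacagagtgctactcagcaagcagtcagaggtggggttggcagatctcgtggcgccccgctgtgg

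The string GCCNNNGGC stood within 100 bp of the summit in 2 of the 9 regions (22.2%), as GCCTGAGGC at Foxn2 and GCCCTGGGC at Foxi2 +67.2 kb, against 22.6% of all AP-2-dependent regions. Both matches also meet the second consensus. With that consensus alone, 6 of 9 regions held a match (66.7%, interval 35.4 to 87.9%) against 49.6% of all regions. The match at Foxl2, CCCCTAGGC, was centred −3 bp from the summit, and that at Foxi2 −75.4 kb, CCCTTAGGC, was centred 6 bp from it. The regions at Foxc1, Foxb1 and Foxp2 held neither string in this window. The core of the forkhead consensus, TGTTTAC, was in 0 of 9 regions, which allows a share of up to 33.3%, and in 2.82% of all regions. A match describes the letters of the window and is not evidence of binding.

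**Figure D1:**
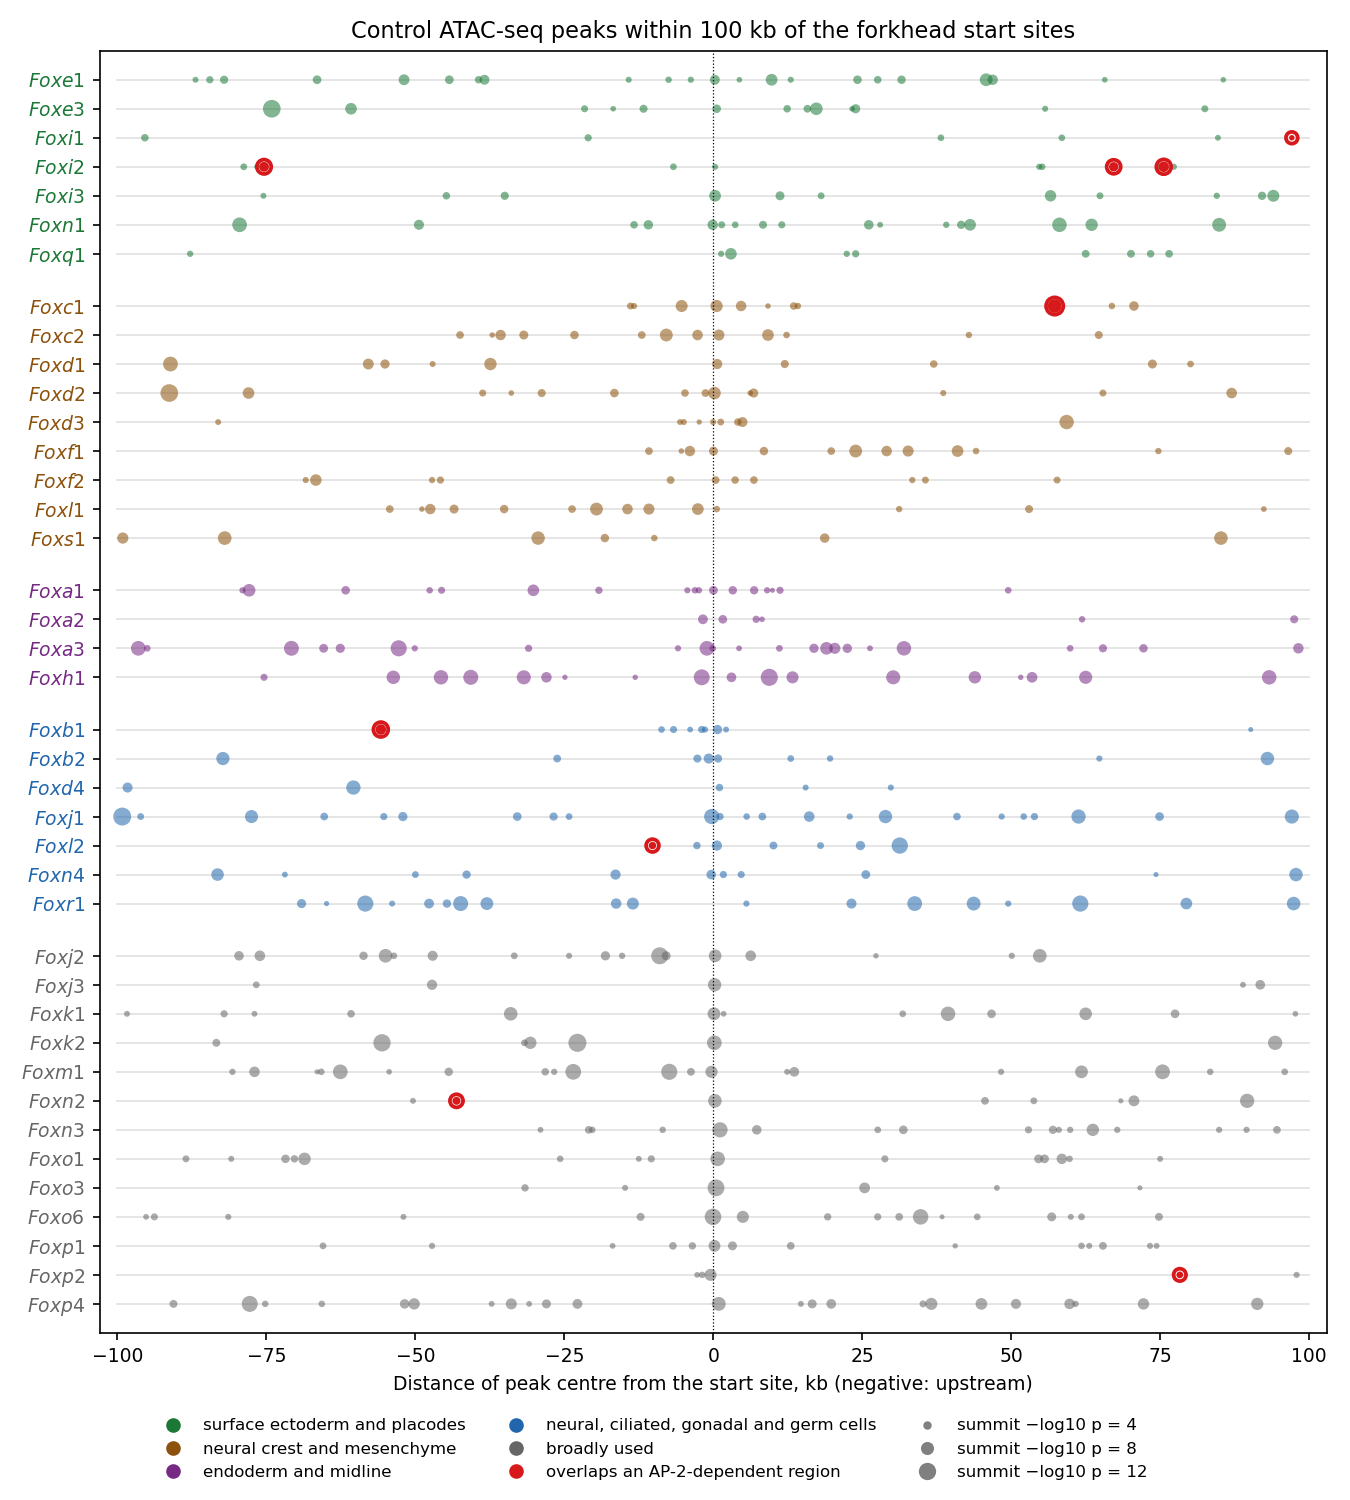
Distance from the start site of every control peak within 100 kb of 40 of the 41 forkhead genes, in kb. Each point is a peak, its size rises with the summit −log10 p, colours give the role group, and red points overlap an AP-2-dependent region. The 9 red points lie at 7 genes, none of them at a start site, and 3 are at Foxi2.

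Few of the peaks at forkhead genes overlapped an AP-2-dependent region. The share was 9 of 464 peaks, or 1.94% (1.02 to 3.64%), beside 4.51% of all control peaks. Promoters and distal sites had different backgrounds. None of the 179 forkhead peaks within 5 kb of a protein-coding start site overlapped a region, which allows a share of up to 1.68%, and the background there was 1.54%. Farther out the share was 9 of 285 (3.16%, 1.67 to 5.89%) against a background of 5.77%. Counted by gene, 7 of 41 had a region within 100 kb (17.1%, 8.53 to 31.3%), close to the 21.0% of all protein-coding genes. Among all genes with 5 to 23 control peaks, the range of the forkhead genes, 25.4% did. Within that range the counts were not matched. The distal share and both shares of genes lay within the forkhead intervals, and only the share over all peaks lay outside.

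No region was at a forkhead promoter. Foxl2 had the closest, 10.3 kb upstream, and 7 of the 9 were more than 50 kb away (77.8%, 45.3 to 93.7%), with 4 upstream and 5 downstream. Over all protein-coding genes, 49% of the pairs of a gene and a control peak with a region within 100 kb were at 50 to 100 kb, a share inside the forkhead interval. Of the 9, 7 were intergenic and 2 intronic, and the shares over all regions are not given. The area under the −log10 p curve, which adds up the signal above the threshold over the region, had a median of 336 at forkhead genes and 394 over all regions. The areas ran from 201 at Foxi1 to 1175 at Foxi2, which exceed 0.565% and 90% of all regions. Each of the 9 lay in single-copy sequence and overlapped a control peak, and in 5 the summit of the region was within 10 bp of that of the peak. Both lists were called on the control libraries, so such overlap is favoured by the way they were made.

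**Figure D2:**
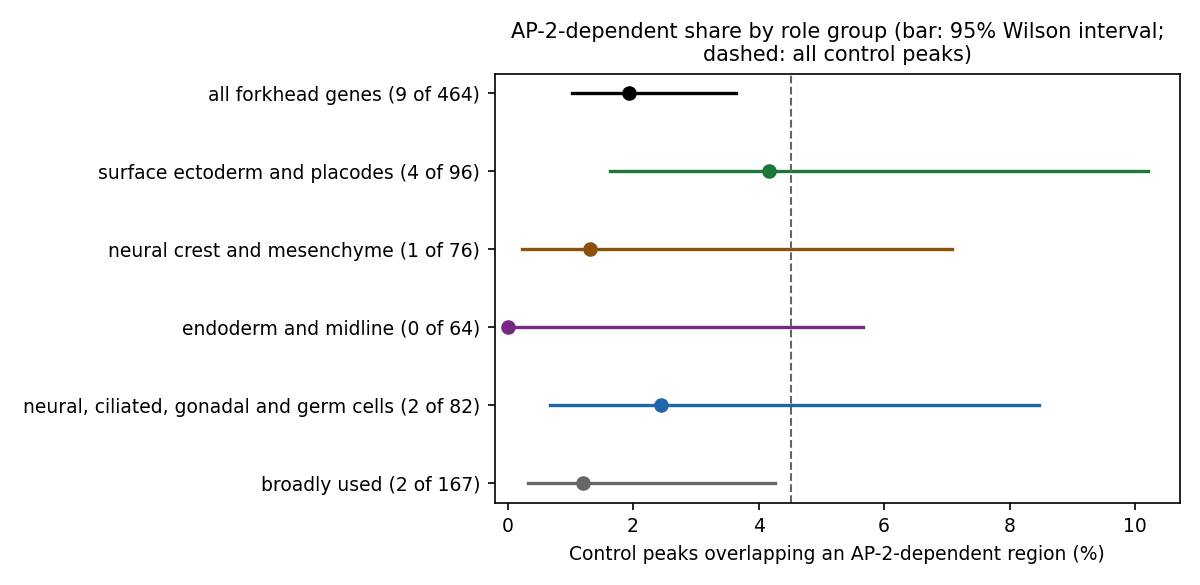
Percentage of control peaks that overlapped an AP-2-dependent region, for all forkhead genes and for 5 role groups, with 95% Wilson intervals as bars and the share of all control peaks (4.51%) as the dashed line. Each group interval crosses the dashed line except that of the broadly used genes, which ends at 4.26%. Peaks near genes of 2 groups count in both, and the dashed line does not allow for the groups' differing shares of distal peaks.

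By role, the surface ectoderm and placode genes held 4 of 96 peaks with a region (4.17%, 1.63 to 10.2%). The broadly used genes held 2 of 167 (1.2%, 0.329 to 4.26%), the neural, ciliated, gonadal and germ cell genes 2 of 82 (2.44%), and the neural crest and mesenchyme genes 1 of 76 (1.32%). The endoderm and midline genes (Foxa1, Foxa2, Foxa3 and Foxh1) held 0 of 64, which allows up to 4.69%. The intervals of the groups overlapped, so the data do not order them. Peaks near genes of 2 groups are counted in both. The groups also differed in peaks more than 5 kb from every start, from 25 of 64 (endoderm and midline) to 126 of 167 (broadly used). The background was 5.77% for such peaks and 1.54% for those nearer. The share of all control peaks is therefore not a matched background for a group.

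Foxi2, an early gene of the cranial ectoderm, had the most AP-2-dependent regions of the family. It had 11 control peaks, 10 of them more than 5 kb from every start, and 3 of the 11 overlapped a region (27.3%, 9.75 to 56.6%). The background was 4.51% of all control peaks and 5.77% of those more than 5 kb from every start. The count is the highest of 41 genes, and the interval does not allow for that selection. The region 75.4 kb upstream (chr7:135334486-135335266) had the largest area of the 9, 1175, larger than 90% of all AP-2-dependent regions, and a summit −log10 p of 5.20. It spanned the whole of a 781-bp control peak with a summit of 7. The other two lay downstream, at +67.2 kb (chr7:135477328-135477739, area 336, summit 3.82) and +75.5 kb (chr7:135485653-135485985, area 336, summit 4.55). Their control peaks had summits of 6.56 and 7.58. The remaining 8 peaks of Foxi2 had summits between 3.33 and 4.37, so the 3 with a region were the strongest of the locus. Regions were called on the same control signal as the peaks, so peak strength and the presence of a region are not independent. Foxi2 had no other protein-coding start within 100 kb, but the 3 regions were nearer to the starts of Nps, a neuropeptide gene (66.2 kb), and of Clrn3 (51.1 and 42.8 kb) than to that of Foxi2. Which gene they act on was not tested.

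At the start site itself Foxi2 had the weakest peak of any forkhead gene with one, with a summit −log10 p of 3.81, higher than only 15.9% of all control peaks, and a width of 468 bp. Foxi1 and Foxi3, the other two Foxi genes, differed from it in opposite directions. Foxi1, needed in ion-transporting cells, had no peak at its start and only 6 within 100 kb, none with a summit above 4.97. Its single region lay 97.1 kb downstream (chr11:34110885-34111150), with an area of 201 where the lowest of the list is 200 and a summit of 3.32, and the start of 4930469K13Rik was nearer, at −12.5 kb. The control peak there had the same borders, the same area and the same summit. Foxi3, which acts in the preplacodal ectoderm and in teeth and hair, had a stronger start peak than Foxi2 (summit 8.69, width 1951 bp). That summit was close to the median of forkhead start peaks (8.74) and below that of all genes (9.62). Foxi3 had 11 peaks and no region, which allows a share of up to 27.3%.

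The limit of 100 kb fell close to several regions. Just inside it was the weak Foxi1 region at 97.1 kb. Just outside were regions 115 kb upstream of Foxr1 (area 231) and of Foxi1 (area 1382, summit 7.60). For the Foxr1 region the start of Cxcr5 was nearer, at 5.52 kb. At Foxi1 a further 3 followed at 127, 132 and 134 kb upstream, the last with a summit of 10.2 and an area of 1495, and for all 4 of these upstream regions the start of Fam196b was nearer, at 8.69 to 27.2 kb. The nearest region to Foxi3 was at +118 kb (area 403, summit 4.25), with the start of Thnsl2 nearer, at 69.4 kb. Foxn3 had a region at −117 kb and Foxa2 at −126 kb, and each of these had its forkhead gene as the nearest start.

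The promoter windows of Foxi2 and Foxi3 are printed because they are the start sites with the weaker and the stronger peak in the same small subfamily. They run from 250 bases before to 50 after the start site, on the plus strand of GRCm38, which is the strand of both genes. Capitals again mark matches to either AP-2 string.
Foxi2 promoter, chr7:135410058-135410357: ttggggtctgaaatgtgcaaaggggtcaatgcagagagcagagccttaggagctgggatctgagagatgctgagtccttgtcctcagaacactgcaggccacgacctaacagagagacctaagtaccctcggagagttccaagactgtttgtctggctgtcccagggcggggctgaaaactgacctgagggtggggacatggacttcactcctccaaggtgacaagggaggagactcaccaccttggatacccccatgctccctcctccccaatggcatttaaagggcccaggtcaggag
Foxi3 promoter, chr6:70956356-70956655: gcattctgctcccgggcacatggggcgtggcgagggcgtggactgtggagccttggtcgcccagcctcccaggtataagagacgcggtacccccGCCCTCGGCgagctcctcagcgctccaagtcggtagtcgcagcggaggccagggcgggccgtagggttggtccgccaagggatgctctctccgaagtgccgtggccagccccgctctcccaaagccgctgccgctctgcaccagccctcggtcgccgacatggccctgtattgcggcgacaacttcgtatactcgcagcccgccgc

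The Foxi2 window had few CpG dinucleotides, with an observed over expected ratio of 0.128, the lowest of the family, against 0.871 at Foxi3 and a median of 0.573 over all genes. It held no AP-2 string, whereas that of Foxi3 held 1, GCCCTCGGC. The window of Foxi1, which had no start peak, held 2 matches to GCCNNNGGC. Across the family 11 of 41 promoter windows held GCCNNNGGC (26.8%, 15.7 to 41.9%) against 19.5% of all promoters. The forkhead core TGTTTAC was in 1 of 41, that of Foxa1, against 2.98% of all promoters.

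Foxc1, which acts in the mesenchyme around the eye and in the skull, had all 11 of its peaks nearest to its own start. Its region lay 57 kb downstream in an intron of Gmds (chr13:31863506-31863849, area 475, summit 6.15). This was the highest region summit in the family. It covered 30.2% of a 1138-bp control peak that was the strongest of the locus, with a summit of 10.6, and the summits of region and peak were −3 bp apart. The Foxc1 start peak was 3410 bp wide with a summit of 9.17, and neither it nor the other 9 peaks overlapped a region.

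Foxb1, a gene of the hypothalamus and brainstem, also had all 9 of its peaks nearest to itself. Its strongest peak (summit 7.62) overlapped the region 55.7 kb upstream (chr9:69816364-69816950, area 678, summit 4.16), the second largest area in the family. Foxl2, known for the ovary and the eyelid, had its region 10.3 kb upstream (chr9:98944698-98945253, area 481, summit 3.73). The control peak there had a summit of 4.89, well below the 13.1 of its strongest peak, which lay beside Faim. The region at Foxn2, a broadly used member, was 43.1 kb upstream (chr17:88397530-88397763) and had an area of 232 and a summit of 3.92. In Foxp2, which acts in brain and lung, the region lay in an intron 78.3 kb downstream of the start (chr6:14979493-14979734), with an area of 203 and a summit of 3.61. The regions at Foxn2, Foxp2 and Foxi1 had the smallest areas of the 9, no more than 232.

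The other 34 forkhead genes had no AP-2-dependent region within 100 kb. Foxe1 had the most control peaks of them in the surface ectoderm group, 22, of which 12 had Foxe1 as the nearest start, and 0 of 22 allows a share of up to 13.6%. Its start peak was broad, at 3641 bp, with a summit of 7.02, and it had further peaks nearest to itself with summits of 8.70 at +9.79 kb and 7.87 at −51.9 kb. The nearest AP-2-dependent region to Foxe1 was 2630 kb away, farther than for any other forkhead gene. Over the family the median distance to the nearest region was 231 kb, against 314 kb for all protein-coding genes.

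Other members of the surface ectoderm group differed in how open they were at the start. The start peak of Foxn1 had a summit of 7.44 among 17 peaks, and that of Foxe3 a summit of 5.88 among 13. Foxq1, used in hair and in mucous epithelium, had no peak within 1 kb of its start, but a 2688-bp peak with a summit of 8.53 was centred 2.96 kb downstream and 61.7% of the gene lay in peaks.

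Most forkhead start sites were open. A control peak came within 1 kb of the start, measured to its edge, in 36 of 41 genes (87.8%, 74.5 to 94.7%), against 66.7% of all protein-coding genes. The 5 without one were Foxh1, a partner of SMAD proteins in Nodal signalling, Foxs1, Foxr1, Foxi1 and Foxq1. CpG content divided the start sites, as it does for genes in general. With an observed over expected ratio of at least 0.6, 27 of 28 forkhead starts were open (96.4%), and so were 97.9% of all such genes. Below 0.6, it was 9 of 13 (69.2%, 42.4 to 87.3%) against 37.8%. Of the 5 closed start sites, Foxh1, Foxs1, Foxi1 and Foxq1 had ratios of 0.153, 0.281, 0.232 and 0.256, and Foxr1, a gene of germ cells, had 0.677.

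The start peaks of forkhead genes were wide rather than tall. Where a gene had more than 1, as 5 did, the strongest was taken, and for 3 of the 36 genes that peak was nearer to the start of another gene. Their median width was 2138 bp (quartiles 1470 to 2607 bp, n = 36) against 1391 bp (1004 to 1897 bp) for all genes with a start peak. The median summit −log10 p was 8.74 (6.40 to 10.3), below the 9.62 (7.40 to 11.5) of all genes. Summits were highest in the broadly used genes, where all 13 had a start peak, with a median of 10.4 and a range of 8.78 to 13.6. Foxo3, a mediator of insulin and stress signals, had the tallest (13.6) and also the widest (5166 bp), and Foxo6 followed with 13.4. Of the 23 start peaks in the other groups, 18 were below the lowest of the broadly used genes, which was Foxp1. The exceptions included Foxj1 with 12, Foxd2 with 9.47 and Foxc1 with 9.17. The peak taken for Foxa3 had a summit of 11.5, but it was nearer to the start of Sympk, and the peak over the Foxa3 start itself had a summit of 4.22. The start peak of Foxm1 (9.11) was nearer to the start of Rhno1. Group medians were 7.23 in the surface ectoderm and placode genes, 6.75 in the neural crest and mesenchyme genes, 6.05 in the endoderm and midline genes, and 6.96 in the neural, ciliated, gonadal and germ cell genes. The markers of neural crest and mesenchyme and of neural tissue, given above, had start peaks with lower medians still, and the part that other cells of the dissection play in these peaks was not tested.

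**Figure D3:**
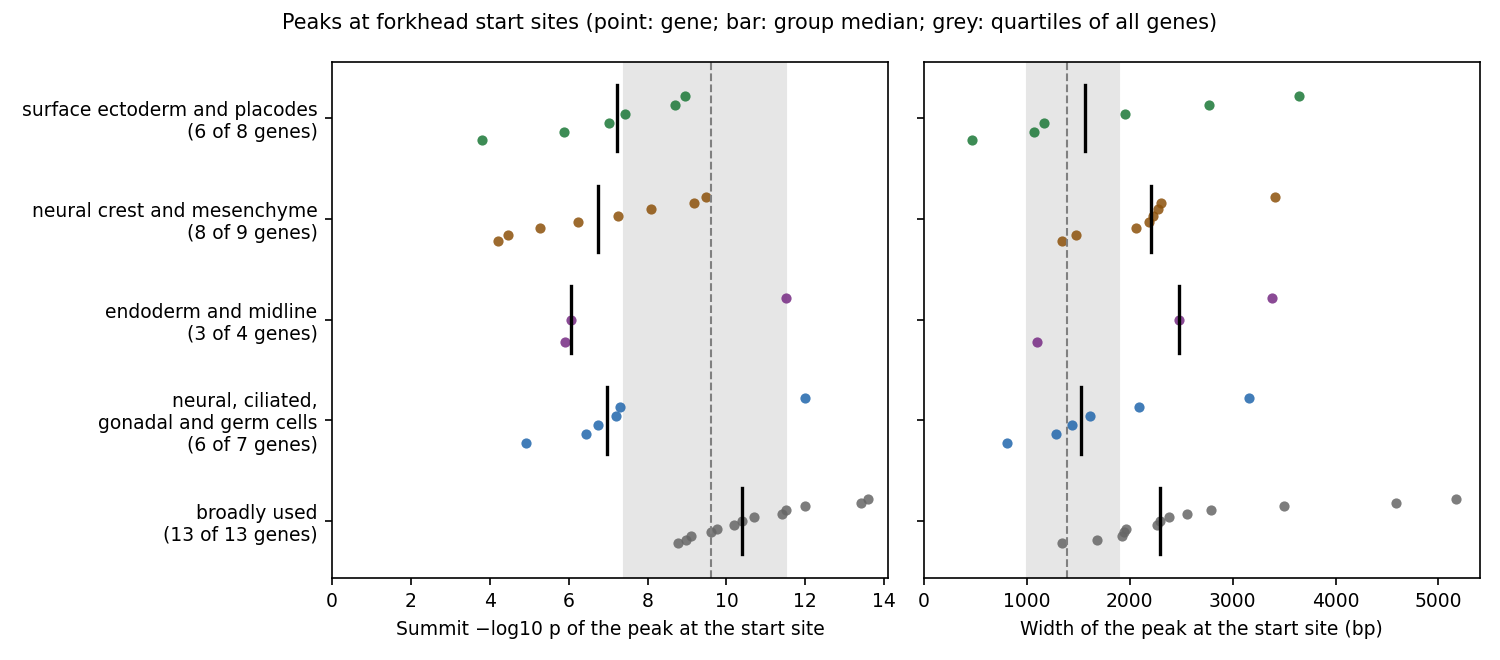
Summit −log10 p (left) and width in bp (right) of the control peak at the start site of the 36 forkhead genes with one, by role group. Points are genes, black bars group medians, and the grey band and dashed line the quartiles and median of all protein-coding genes; the broadly used genes lie between 8.78 and 13.6, and the widths mostly exceed the median of all genes.

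Peaks also covered much of the forkhead genes themselves, many of which are short and have a single exon. Among the 25 forkhead genes under 10 kb, a median of 59.6% of the gene lay in control peaks (quartiles 29.8 to 73.3%), against 3.82% for all genes of that length. At least 50% of the gene lay in peaks in 14 of the 25 (56.0%, 37.1 to 73.3%), against 9.44% of all genes under 10 kb. The whole of Foxe3 was covered, and so was 98.3% of Foxb2. Foxh1, Foxi1 and Foxs1 had no part of the gene in a peak.

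Around the starts the peaks were dense. Between 1 and 5 kb from the start, forkhead genes had 1.43 peaks per gene and 10 kb against 0.475 for all genes, and from 5 to 20 kb 0.789 against 0.438. Between 50 and 100 kb the densities were 0.485 and 0.436. Of the 41 genes, 25 had at least 2 peaks within 5 kb (61.0%, 45.7 to 74.3%), against 24.1% of all genes. Of the 9 peaks that overlapped an AP-2-dependent region, none was within 5 kb, 1 was at 5 to 20 kb (11.1%, against 15.0% of such pairs over all genes) and 1 at 20 to 50 kb (11.1%, against 29.8%). Over all genes 2.52% were within 1 kb and 3.64% at 1 to 5 kb. Peaks near several forkhead genes enter these densities once for each gene.

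**Figure D4:**
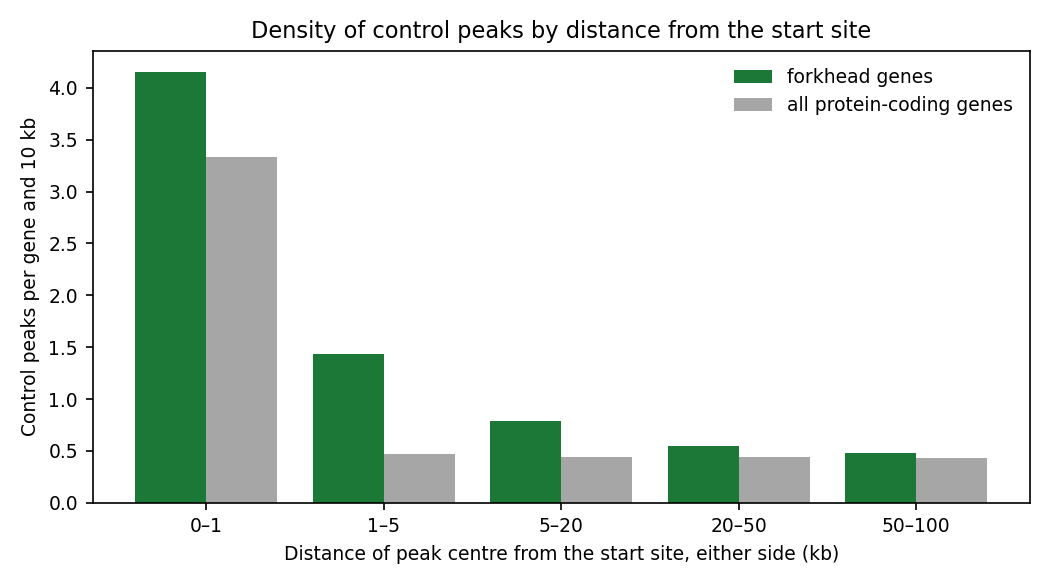
Control peaks per gene and 10 kb of sequence in 5 classes of distance from the start site, either side, for the 41 forkhead genes (green) and all protein-coding genes (grey). The bars differ most from 1 to 5 kb, 1.43 against 0.475, and are close from 50 to 100 kb, 0.485 against 0.436.

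Within 100 kb the forkhead genes had a median of 11.0 control peaks (quartiles 8 to 17, range 5 to 23), against 8 (4 to 13) for all protein-coding genes, and no member was without a peak. The most were 23 at Foxa3, an endoderm gene, at Foxj1, which drives motile cilia, and at the broadly used Foxp4. Foxe1 followed with 22 and Foxm1, a regulator of mitosis, with 20. These counts include the peaks of neighbours. Foxm1 was the nearest start for 0 of its 20 peaks and Foxa3 for 2 of its 23, whereas Foxn3 and Foxp1 were nearest to all 17 and all 14 of theirs. Over the family a forkhead start was nearest to 242 of the 464 peaks (52.2%, 47.6 to 56.7%).

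**Figure D5:**
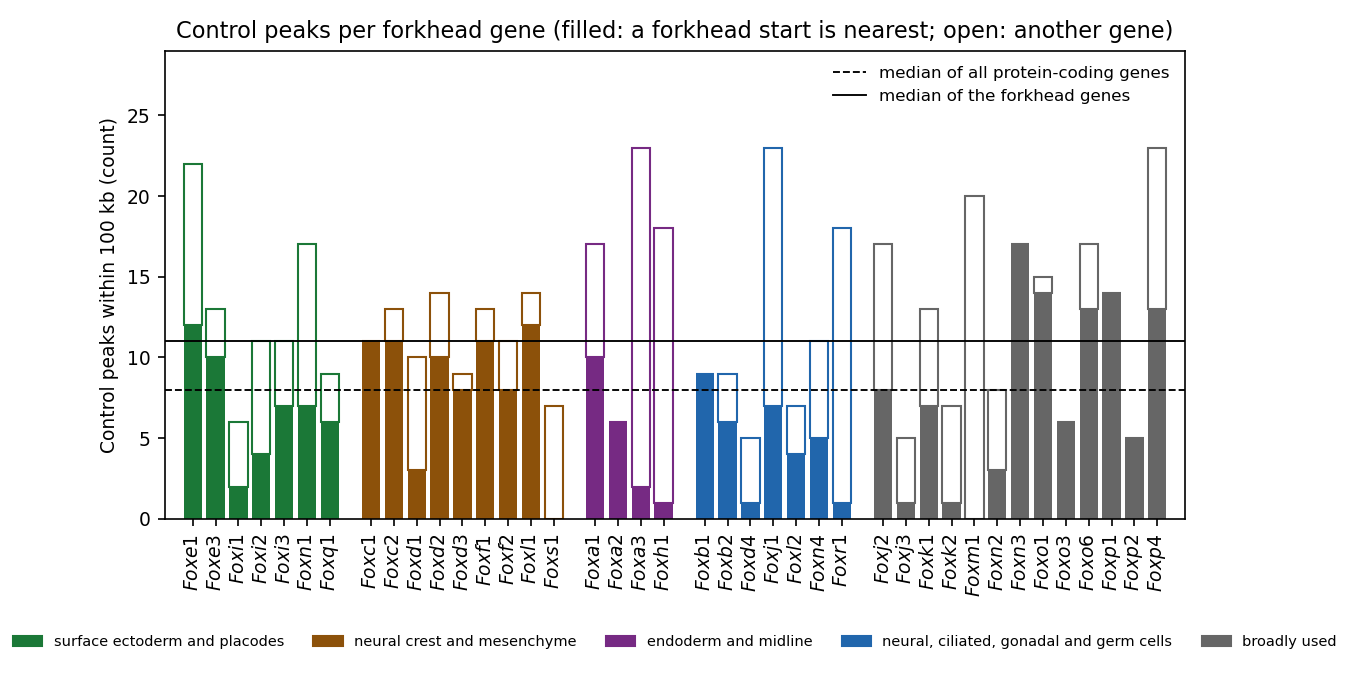
Number of control peaks within 100 kb of 40 of the 41 forkhead genes, coloured by role group. The filled part counts peaks with a forkhead gene as the nearest start and the open part those with another gene; the lines mark the medians of the forkhead genes (11.0) and of all protein-coding genes (8), and Foxa3, Foxj1 and Foxp4 reach 23.

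For the same reason the strongest peak in a window was often nearer to the start of another gene. Its nearest start belonged to a gene outside the family for 30 of the 41 genes, and the share over all genes is not given. Such a peak was not always at a promoter. That of Foxa1 was 48.2 kb from the start of Ttc6 and that of Foxi3 93.8 kb from that of Thnsl2. The highest were the peaks near Narf in the window of Foxk2 (summit 14.9), near Ubald2 in that of Foxj1 (14.8), near Stil in the shared windows of Foxd2 and Foxe3 (14.5), and near Kifc2 in that of Foxh1 (13.9). For 8 genes the strongest peak was the one at the gene's own start, among them Foxo3 and Foxo6.

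Some forkhead genes lie beside each other and share peaks. The windows of Foxf1, Foxc2 and Foxl1 on chr8, whose start sites are 43.6 kb from first to last, held 14 peaks, 13 of them within 100 kb of every one of the 3 genes. Foxd2 and Foxe3 on chr4, 17.1 kb apart, shared 13 of 14 peaks. Foxq1 and Foxf2 on chr13 are 69.7 kb apart and shared 8 of 12. None of the peaks of these 7 genes overlapped an AP-2-dependent region. In all, 34 peaks were within reach of 2 or more forkhead genes. They are counted once in the totals, and once in each role group whose genes they are near.

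Over all 464 peaks, strength and string content were close to those of control peaks in general, and widths were larger. The median summit −log10 p was 5.21 (95% interval of the median 4.99 to 5.58), against 5.10. The median width was 704 bp (95% interval of the median 646 to 781 bp), against 560 bp. The string GCCNNNGGC stood within 100 bp of the summit in 67 peaks (14.4%, 11.5 to 17.9%), and in 14.4% of all control peaks. TGTTTAC was in 12 (2.59%, 1.49 to 4.47%), against 3.00%. By position, 50.4% of forkhead peak summits were intergenic, 34.1% intronic, 9.91% in untranslated regions and 5.60% in coding exons. The shares by position over all control peaks are not given, so these have no background here.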

How the data were processed

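ATAC-seq was made from E11.5 facial ectoderm, 2 control and 2 EDKO libraries. Per the methods, the authors trimmed reads with NGmerge, placed them on the mm10 genome by Bowtie2 in its very sensitive mode (up to 10 alignments kept) and used Genrich 0.5 in ATAC-seq mode, without duplicates or mitochondrial reads and with the libraries of a call combined. The values deposited for a peak are a score from the authors that is the area under the curve per width, the area itself, also a score, the unadjusted −log10 p at the summit, and the summit's offset. Areas and −log10 p values were compared within a list, except that the Foxi1 region was set beside its control peak.

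Start sites were those of the APPRIS principal transcript in GENCODE (mouse release 21) on GRCm38.p6, whose reference also gave the sequences. An overlap was counted from 1 bp and a start peak from an edge within 1 kb. Strings were matched on both strands. Overlaps, distances and matches were computed with Python 3.11.15 (pandas 2.3.3, numpy 2.4.6, scipy 1.17.1) after tests on simulated data. No test was run, since the lists have no replicates. By rule, the text names every gene with a region, the surface ectoderm and placode group with 1 exception, the 5 genes with the most peaks and the 5 with the highest summits. Single genes named beyond that rule, and the CpG and gene-length classes, were chosen after their values were seen. The values of 1 member are in the counts and medians but are not reported here. The members, role groups and strings were chosen with earlier results of these data known.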

Additional observations from a re-analysis of the deposited data

How the results depend on the processing

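For 9 results, 47 alternative values were computed, 46 from settings listed at the start and 1 added after seeing the data. Of these, 20 moved and 27 did not. A count was taken as moved beyond 1.5 times the reported count, and a share or median when outside the 95% interval of the reported value. With a limit of 50 kb there were 279 peaks, an AP-2-dependent share of 0.717%, and 2 regions at 2 genes. With 250 kb there were 954 peaks and 31 regions at 21 genes, and the share, 3.14%, stayed inside the interval of 1.02 to 3.64%. Only areas of at least 500 left a share of 0.637%, 2 regions at 2 genes and a share of regions with GCCNNNGGC of 0. Only peaks with a forkhead start nearest left 242 peaks and 5 regions. The basal plus extension rule of GREAT gave 15 genes. For these limits and rules no share over all genes or all control peaks is given, so the counts and shares have no background here. A window of 250 bp on either side gave shares of 29.1% for GCCNNNGGC and 6.25% for TGTTTAC. The second AP-2 consensus gave 19.2% of peaks and 66.7% of regions, and a shorter forkhead string 11.0% of peaks. Beyond 5 kb from every start, the median summit was 4.69. The share with a region there, added later, was 3.16% and also inside that interval. The cause of these changes was not tested beyond what each limit or string takes in by construction.

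No paired analysis was possible because the libraries of each call were combined, and for the same reason leaving out a library was not possible. Read depth is unknown. A region absent from the list was not detected at the authors' threshold, and accessibility gained in EDKO ectoderm, expression and AP-2 binding were not analysed here.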

Other observations

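Under the assignment rule of GREAT, which lets a gene reach as far as 1000 kb where no other gene intervenes, 27 regions were assigned to 15 forkhead genes, 8 of them outside the 7 with a region within 100 kb. The share of all genes under that rule is not given, so this count has no background. The next regions beyond the limit included 1 at +130 kb from Foxp1, which acts in lung, heart and neurons (area 206, summit −log10 p 3.63), 1 at −139 kb from Foxn4, a gene of retinal and spinal interneurons (area 1317, summit 7.43, with Mmab nearer), and 1 at −151 kb from Foxq1 (area 260, summit 3.70). The forkhead genes without a region nearby included Foxd3, a neural crest specifier, whose nearest region was 1173 kb away, and Foxh1, for which it was 1583 kb.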
